A study of Arabidopsis thaliana with 6 samples.

Results

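The genes described here belong to the auxin response and auxin transport families of Arabidopsis thaliana, compared between seedlings of the brassinosteroid mutants bzr1-1D and det2. They were taken by gene symbol (SAUR, IAA, ARF, PIN and LAX with a number, and GH3 with a decimal number) or as 1 of 19 listed SAUR loci, and only where a probe set was paired with a single gene. The rule found 11 probe sets, 1 for each of 11 genes, of 22746 in all and of 13356 genes named in this way: 7 Aux/IAA genes (IAA18, IAA20, IAA29, IAA30, IAA31, IAA33 and IAA34) and 4 GH3 genes (GH3.1, GH3.3, GH3.9 and GH3.17). It found 0 SAUR, 0 ARF, 0 PIN and 0 LAX genes, so auxin response factors, efflux carriers and influx carriers were not analysed here, and the set covers repressors of the auxin response and enzymes that inactivate the hormone.

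Both mutants come from Columbia-0. The line bzr1-1D carries a dominant allele that keeps the brassinosteroid transcription factor BZR1 active, and det2 is impaired in a steroid reductase of brassinosteroid synthesis. Every group had grown for 5 days in shaken liquid medium with 1.5% sucrose in continuous light at 22 °C. The flasks of 1 L, each with 300 mL of medium, were then given 15 µL of 80% ethanol for 3 hours. This was a mock treatment, so no group was given brassinosteroid. Each genotype was sampled as whole seedlings, pooled from a flask sown with about 15000 seeds, in 3 experiments in different weeks, with 1 Affymetrix ATH1 array per genotype and experiment. Each genotype is represented by a single mutant line, the labels do not name the det2 allele, and wild-type arrays were not analysed here, so a difference shows how the mutants compare with each other and not which of them departs from the wild type.

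Auxin acts by bringing Aux/IAA repressors to TIR1/AFB receptors, which send them for degradation and so free the auxin response factors to switch on their targets. Those targets include many Aux/IAA genes and GH3 genes. Such members answer auxin and restrain it, the first as repressors and the second by joining indole-3-acetic acid to amino acids. Whether each of the genes described here answers auxin was not tested. Brassinosteroid and auxin share many growth targets in seedlings, and BZR1 is known to bind many genes of auxin signalling.

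Values are probe-set intensities on a linear scale, and differences are bzr1-1D minus det2 in log2(intensity + 50), a scale on which dim probe sets differ less than in intensity. All p-values come from limma, two-sided, in a fit that blocks on the experiment, adjusted by Benjamini-Hochberg over the 22746 probe sets. The median intensity of an array was 212.75 at the lowest and 221.4 at the highest. Of the markers of seedling tissues and low oxygen, 7 of 38 had a named probe set. PORB of green tissue lay between 5322 and 9402, and the root hair expansins EXPA7 and EXPA18 between 44.2 and 291.5. The seed storage protein PAP85 lay between 43.1 and 127.5. AUR1 and AUR2 of dividing cells lay between 188.7 and 701.1, with log2 differences of 0.27 ± 0.18 and 0.01 ± 0.13 (SE, limma, adjusted p = 0.795 and 0.995). The low-oxygen gene HRA1 is given below. In whole seedlings, fewer cells of a type and less RNA per cell cannot be told apart.

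Of the 11 auxin genes, GH3.17 showed the widest difference between the genotypes on the log2 scale above, and the other 10 lay within 0.43 in size. This ranking depends on the constant added before the log2. With none added, the dim gene IAA31 differed more, at -1.29 against -0.996 for GH3.17. The mean intensity of GH3.17 was 1.96 times as high in det2 as in bzr1-1D. For IAA31 the same ratio was 1.77, and IAA20 was 1.82 times as high in bzr1-1D as in det2. With limma, 0 of the 11 had an adjusted p under 0.05, where 0% of all probe sets did, and 1 of the 11 had an unadjusted p under 0.05, where 6.84% of all probe sets did. The adjusted p of the 11 ran from 0.701 to 0.969. Among the 11, 6 had the higher level in bzr1-1D, against 47.6% of all probe sets, and 5 in det2, with a median log2 difference of 0.07 against -0.01 over all probe sets. The median size of the difference, sign apart, was 0.19 for the 11 and 0.14 over all probe sets. The 1 gene at an unadjusted p under 0.05 became 0 without experiment 2, 2 without experiment 1 (GH3.17 and GH3.3), and 1 other gene, IAA31, without experiment 3.

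The genes were dim on these arrays. In their brighter genotype 3 of the 11 (IAA18, GH3.3 and GH3.17) reached a mean of 100, against 70.1% of all probe sets. The other 8, 6 of them Aux/IAA genes, had genotype means between 21.7 and 92.5, close to the offset of 50. Changes in those 8 are poorly resolved: the arrays of 1 genotype often spanned a wider range than the gap between the genotypes.

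**Figure D1:**
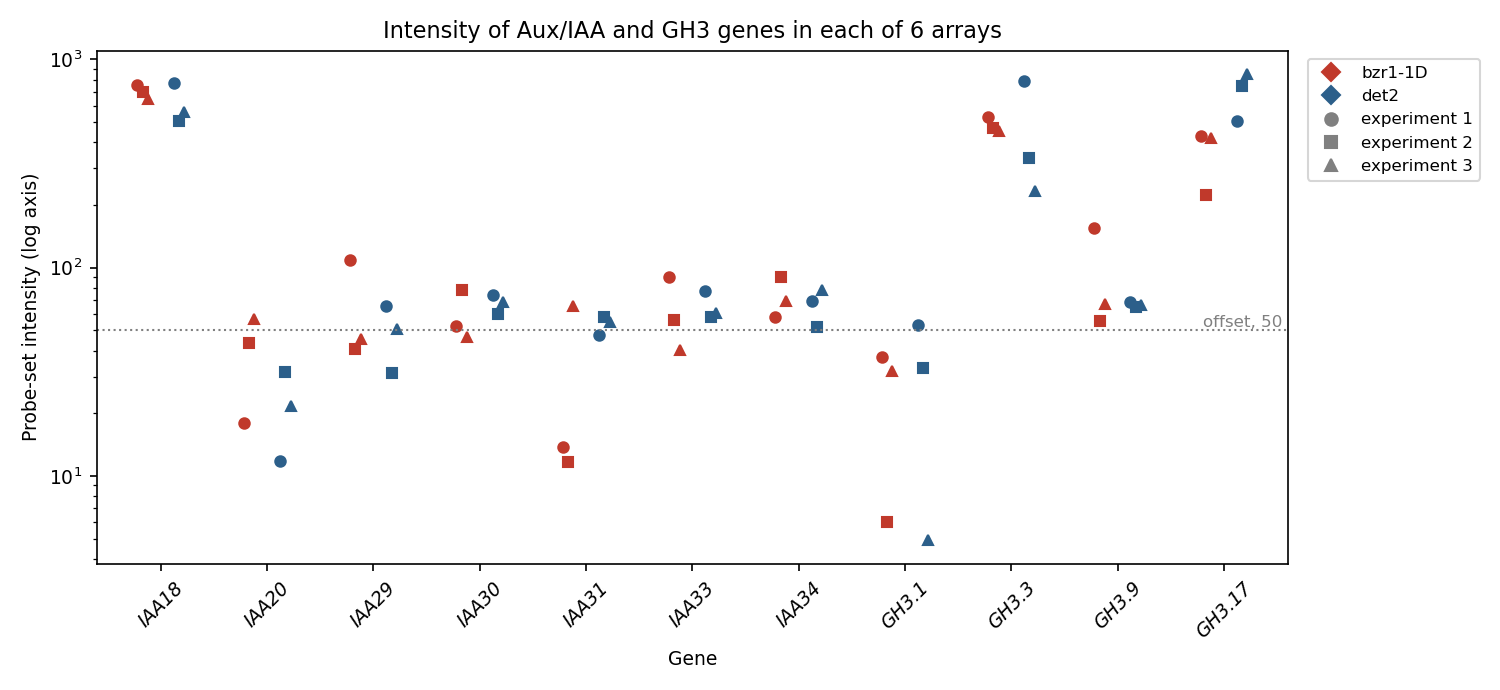
Intensity (log axis) of the 7 Aux/IAA and 4 GH3 genes in each array, bzr1-1D in red and det2 in blue, with the experiment shown by the marker and the offset of 50 as a dotted line. IAA18, GH3.3 and GH3.17 lie between 223.5 and 850.8 in every array, most values of the other genes lie near or under 100, and GH3.17 is the 1 gene whose red and blue points do not overlap. Probe sets differ in brightness, so levels are compared within a gene and not between genes.

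GH3.17 encodes an amido synthetase that joins auxin to glutamate and so lowers the pool of free auxin. In bzr1-1D its intensity was 428.9, 223.5 and 420.9 in experiments 1, 2 and 3. In det2 the same experiments gave 507.0, 741.9 and 850.8. Every det2 array thus stood above every bzr1-1D array, as it did for 5.58% of all probe sets. The gap had 1 sign in all 3 experiments, as 15.5% of all probe sets had with det2 higher. Its mean in det2 was 700 ± 176 (SD, n = 3), against 358 ± 116 (SD, n = 3) in bzr1-1D. In experiments 1, 2 and 3 det2 exceeded bzr1-1D by 1.18, 3.32 and 2.02 times, so its size varied widely.

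The log2 difference of GH3.17 was -0.90 ± 0.28 (SE), with a 95% interval from -1.62 to -0.17 (limma, unadjusted p = 0.0254, adjusted p = 0.701). It did not pass adjustment over all probe sets, of which 1.02% had a lower difference and 3.58% a smaller p. Leaving out experiment 1 gave -1.23, leaving out experiment 2 gave -0.58, and leaving out experiment 3 gave -0.88. The unadjusted p was 0.00502, 0.0692 and 0.106 in these fits of 4 arrays, and of the 3 only the fit without experiment 2 brought the difference down by over 1.5 times.

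Markers of root hairs, like GH3.17, had the lower level in bzr1-1D each time, as 15.5% of all probe sets did. Of 7 root markers, 2 were measured, EXPA7 and EXPA18, which loosen the walls of root hair cells, and neither was at 0 in any array. Their summed intensity was 331.3, 130.8 and 333.1 in bzr1-1D, against 430.1, 549 and 419.7 in det2 in experiments 1, 2 and 3. EXPA18 was nearly level in experiment 3, at 196.2 in bzr1-1D against 201.3 in det2. Neither gene passed (limma, adjusted p = 0.726 for EXPA7 and 0.743 for EXPA18). The 1 measured of 10 green tissue markers, PORB, lay the other way, with 7161, 9402 and 7720 in bzr1-1D against 5322, 6042 and 6253 in det2 (log2 difference 0.45 ± 0.14 (SE), limma, unadjusted p = 0.0232, adjusted p = 0.701). The gap was widest in experiment 2, as it was for GH3.17. Over all probe sets the SD of the log2 difference was also largest in experiment 2, at 0.592, against 0.35 and 0.469 in experiments 1 and 3. The part of root or green tissue in the GH3.17 values was not tested.

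**Figure D2:**
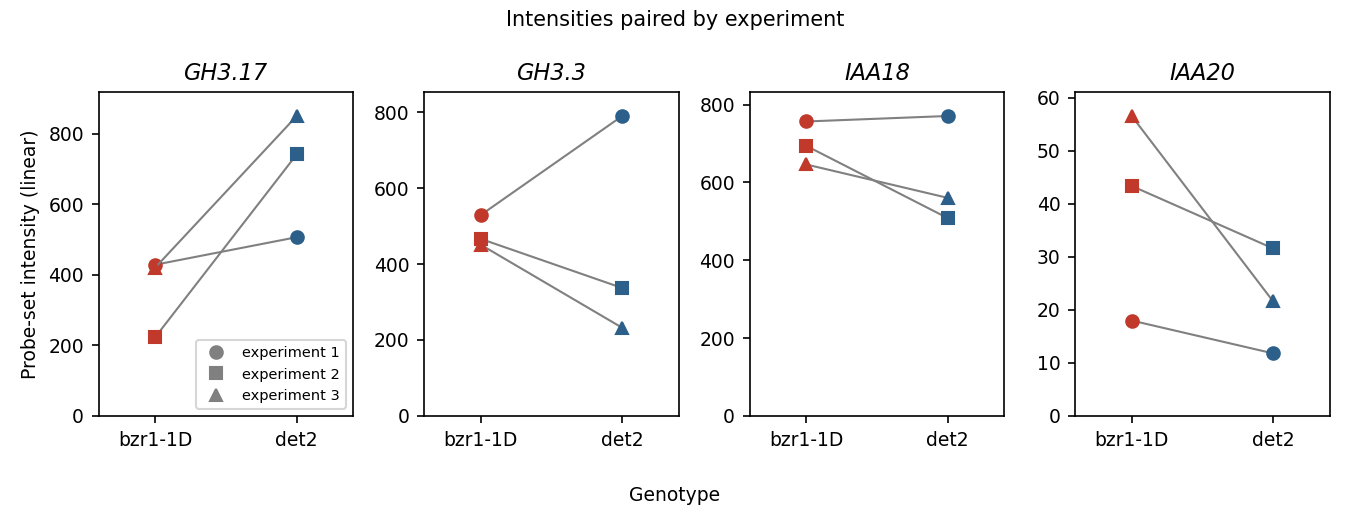
Intensity (linear axis from 0) of GH3.17, GH3.3, IAA18 and IAA20 in bzr1-1D and det2, with lines joining the arrays of 1 experiment. The lines of GH3.17 climb toward det2 in all 3 experiments, from 1.18 to 3.32 times, the lines of IAA20 fall toward det2 in all 3, and those of GH3.3 and IAA18 run both ways.

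GH3.3, an enzyme of the same family that auxin strongly induces, differed between the genotypes in opposite directions in different weeks. It was at 529.2, 466.4 and 451 in bzr1-1D, against 790.1, 337 and 232.2 in det2 in experiments 1, 2 and 3. The bzr1-1D arrays were close together and lay inside the range of the det2 arrays, of which experiment 1 was far above the others: the SD was 41.4 in bzr1-1D and 296 in det2. The log2 difference was 0.24 ± 0.29 (SE), with a 95% interval from -0.53 to 1.00 (limma, adjusted p = 0.883). It was 0.62 without experiment 1 and -0.06 without experiment 3.

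The other GH3 genes were dim. GH3.9, whose loss is known to alter primary root growth, was at 154.7 in bzr1-1D of experiment 1 and between 55.7 and 68.7 in the other 5 arrays. That 1 array carried its log2 difference of 0.23 ± 0.22 (SE), which was -0.05 without experiment 1. GH3.1, another auxin-conjugating enzyme, was below 50 in 5 of 6 arrays. Its genotypes overlapped, with a bzr1-1D mean of 25.1 ± 16.8 (SD, n = 3) and a det2 mean of 30.4 ± 24.3 (SD, n = 3). The 4 GH3 genes split evenly, 2 being higher in either genotype, with a median log2 difference of 0.07 that was -0.23 without experiment 3 and -0.02 without experiment 1.

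IAA18 is an Aux/IAA repressor whose stabilised form is known to disturb embryo and lateral root patterning. Its intensity was 756.4, 693.9 and 646 in bzr1-1D, against 770.5, 508.2 and 560.2 in det2 in experiments 1, 2 and 3. The genotypes overlapped, being nearly level in experiment 1 and 1.37 and 1.15 times as high in bzr1-1D in experiments 2 and 3. The log2 difference was 0.19 ± 0.15 (SE), and its 95% interval, -0.19 to 0.58, leaves out a gap of more than 1.5 times on this scale (limma, adjusted p = 0.811). Without experiment 2 it was 0.08 and without experiment 1 it was 0.30.

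IAA20, IAA30, IAA31, IAA33 and IAA34 are Aux/IAA proteins that lack the fully conserved degradation motif through which auxin removes the others. Proteins of this kind are known as longer-lived repressors. Among these 5 genes, bzr1-1D had the higher level of 2 and det2 of 3. None (0) reached an unadjusted p under 0.05 by limma, and their log2 differences ran from -0.43 to 0.30. With no offset they ran from -1.29 (IAA31) to 0.82 (IAA20), and IAA20 then had an unadjusted p under 0.05 (adjusted p = 0.794). All had a mean under 100 in both genotypes. These genes, IAA29 and the dim GH3 genes lie outside the rule that chose genes for full values, and are described because the families are small.

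IAA20 was the 1 Aux/IAA gene with the same sign in all 3 experiments, as 28% of all probe sets had, and 12.4% with bzr1-1D higher. It was at 18, 43.4 and 56.6 in bzr1-1D, against 11.8, 31.6 and 21.6 in det2. Over all 6 arrays the genotypes overlapped, and 5 of 6 values lay below the offset of 50. The log2 difference of 0.30 ± 0.15 (SE) had an adjusted p of 0.746 by limma, and was 0.17 without experiment 3.

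IAA31 leaned the other way, with a log2 difference of -0.43 ± 0.22 (SE). It was at 13.8, 11.6 and 65.1 in bzr1-1D, against 47.5, 57.8 and 55 in det2. The det2 arrays were close together, while bzr1-1D was low in experiments 1 and 2 and above det2 in experiment 3. Its 95% interval ran from -1.02 to 0.16 (limma, adjusted p = 0.752), and the difference was -0.71 without experiment 3 and -0.24 without experiment 2.

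IAA30, IAA33 and IAA34 stayed between 40.4 and 90.6 in all arrays, with log2 differences of -0.12 ± 0.16, -0.06 ± 0.15 and 0.07 ± 0.18 (SE). Each was higher in bzr1-1D in 1 of 3 experiments, and none of the 3 intervals reached a log2 difference of 0.55 in size. IAA29, which phytochrome-interacting factors are known to induce in elongating seedlings, was at 108.7, 40.7 and 45.6 in bzr1-1D, against 65.3, 31.2 and 50.8 in det2. Both genotypes were highest in experiment 1. Its log2 difference was 0.18 ± 0.16 (SE), with 0.46 in experiment 1 and -0.08 in experiment 3, and without experiment 1 it was 0.04.

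**Figure D3:**
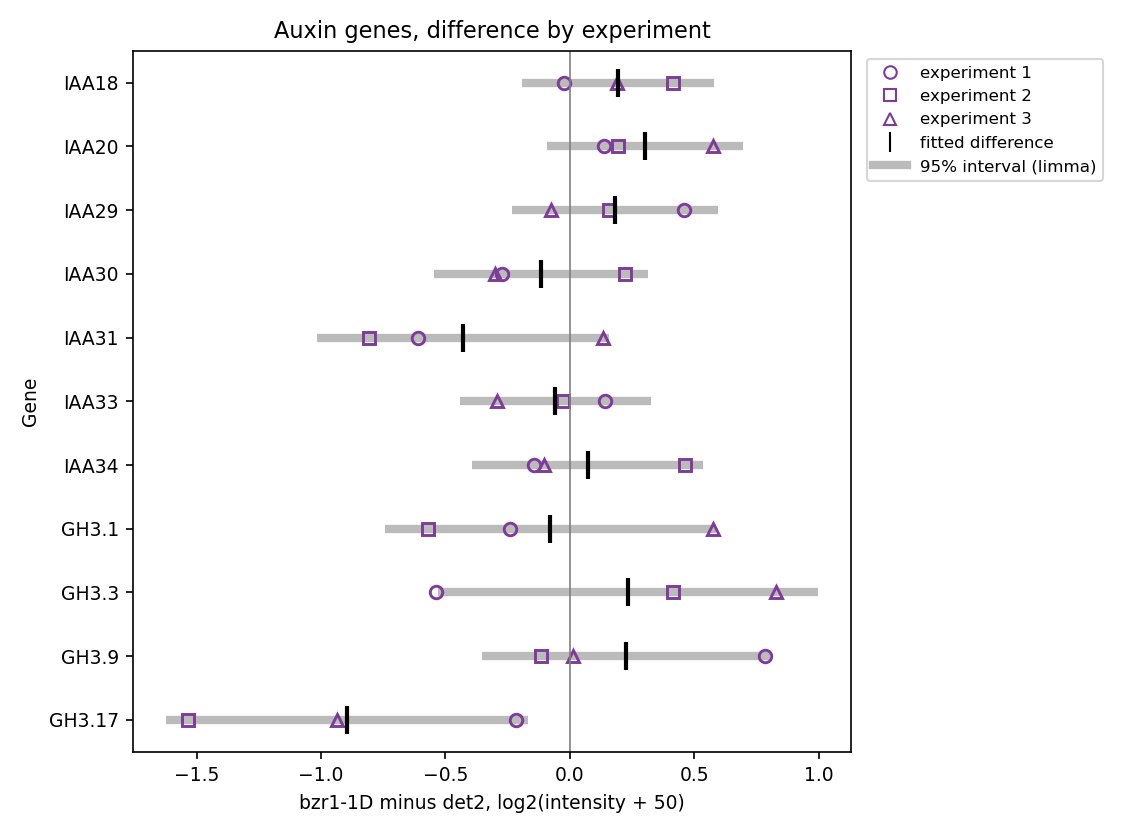
Difference between bzr1-1D and det2 (log2 of intensity plus 50) for each of the 11 genes, with open markers for the 3 experiments, a black bar for the fitted difference and a grey band for its 95% interval by limma. The band leaves out 0 for GH3.17 (-1.62 to -0.17) and spans 0 for the other 10 genes, and only GH3.17 and IAA20 have all 3 markers on one side.

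The week of growth was tested in the same fit, as an F test of the experiment terms with limma. Of the 11 genes 0 had an adjusted p under 0.05, and neither did any of all probe sets (0%). At an unadjusted p under 0.05 there were 0 of the 11, against 11.1% of all probe sets. IAA29 came nearest, with a mean intensity of 87 in experiment 1, 36 in experiment 2 and 48.2 in experiment 3 (limma, unadjusted p = 0.0502, adjusted p = 0.450). GH3.3 had the widest range over experiments, a log2 span of 0.89, with means of 660, 402 and 342 (limma, adjusted p = 0.532).

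Of the 11 genes 6 had their highest mean in experiment 1, 1 in experiment 2 and 4 in experiment 3, where 35.6%, 29.3% and 35% of all probe sets did. Other measures also moved with the experiment. The 3′ signal of a control over its 5′ signal reflects the completeness of labelled RNA. For GAPDH it was 0.757 (bzr1-1D) and 0.800 (det2) in experiment 1 and between 0.461 and 0.496 in the others. For actin it did not set experiment 1 apart, with 1.24 (bzr1-1D) and 1.274 (det2) there and values between 1.219 and 1.38 in the others. The low-oxygen gene HRA1, the 1 measured of 8 such markers, was between 44.7 and 110.7 in experiments 1 and 2 and at 2900.2 and 3534 in experiment 3. Their part in the values of the auxin genes was not tested.

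Of 99 further auxin genes listed by role, 10 had a named probe set: 4 of synthesis, 1 regulator of carriers, 4 response targets and 1 GH3 gene known by another symbol. None of the 6 receptors, the 12 further transporters, the 10 genes of conjugate hydrolysis and inactivation and the 5 repressor partners did. Either genotype had the higher level of 5 of the 10 genes. By limma, 0 passed an adjusted p of 0.05, and at an unadjusted p under 0.05 there was 1 gene higher in bzr1-1D, where 2.74% of all probe sets were, and 1 gene lower, where 4.1% were. Their median log2 difference was 0.01.

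WAG2, a protein kinase that steers PIN auxin carriers to one face of the cell, was the first of these 2. It was at 413.9, 252.1 and 205.2 in bzr1-1D, against 208.5, 126.9 and 165.2 in det2 in experiments 1, 2 and 3. Within each experiment bzr1-1D was above det2, as for 12.4% of all probe sets, by 1.98, 1.99 and 1.24 times. Across experiments the genotypes overlapped. The log2 difference was 0.62 ± 0.17 (SE, limma, unadjusted p = 0.0176, adjusted p = 0.701), and it was 0.51, 0.55 and 0.81 without experiments 1, 2 and 3, with an unadjusted p of 0.0785, 0.0648 and 0.0128.

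LBD16, a transcription factor that auxin induces at the start of lateral roots, was the second. It was at 122.2, 191.6 and 158.5 in bzr1-1D, against 250.2, 244.5 and 234.3 in det2, and the genotypes did not overlap, as 5.58% of all probe sets did with bzr1-1D lower. The means were 157 ± 34.7 (SD, n = 3) and 243 ± 8.05 (SD, n = 3), with a log2 difference of -0.51 ± 0.16 (SE, limma, unadjusted p = 0.0247, adjusted p = 0.701). Without experiments 1, 2 and 3 the difference was -0.37, -0.63 and -0.54, with an unadjusted p of 0.113, 0.0268 and 0.0786. LBD29, which acts beside LBD16, was below 25 in all bzr1-1D arrays and at 14.6, 74.8 and 71.4 in det2. Its log2 difference was -0.58 ± 0.27 (SE, limma, adjusted p = 0.732). The difference was -0.96, -0.41 and -0.38 without experiments 1, 2 and 3 (limma, unadjusted p = 0.00508, 0.267 and 0.338, adjusted p = 0.320, 0.897 and 0.973). The root markers given above were also lower, and PORB higher, in bzr1-1D. The gap of LBD16 was smallest in experiment 2, at a log2 difference of -0.29, where those of the root markers and PORB were widest. The part of root or green tissue in the LBD16 and LBD29 values was not tested.

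The auxin-conjugating enzyme GH3.5, listed under the symbol WES1, was lower in bzr1-1D in experiments 1 and 3 and higher in experiment 2. Its intensity was 625.4, 1038 and 695.5 in bzr1-1D, against 930.7, 735.1 and 1276 in det2. Its genotypes overlapped, with a log2 difference of -0.30 ± 0.28 (SE, limma, adjusted p = 0.846). The difference was -0.18 without experiment 1, -0.69 without experiment 2 (limma, unadjusted p = 0.0176, adjusted p = 0.879) and -0.0338 without experiment 3. Of the YUC flavin monooxygenases, which make auxin from indole-3-pyruvate, 4 were measured, with 0 at an unadjusted p under 0.05. YUC2 and YUC6 had log2 differences of -0.04 ± 0.16 and 0.06 ± 0.35 (SE), and both turned sign over left-out experiments, YUC2 to 0.0477 and YUC6 to -0.446. YUC4 and YUC11, the dimmer pair, had 0.28 ± 0.20 and 0.19 ± 0.22 (SE), with genotype means under 60 for YUC4 and under 20 for YUC11. YUC4 was 0.123 without experiment 1 and 0.514 without experiment 2 (limma, unadjusted p = 0.621 and 0.0401, adjusted p = 0.936 and 0.879). YUC11 was -0.0836 without experiment 1, where 1 bzr1-1D array stood at 42.2. Of the 4 response targets, HAT2 was nearly level, with means of 610 in bzr1-1D and 641 in det2. Its log2 difference was -0.07 ± 0.15 (SE, limma, adjusted p = 0.951). EXO, which encodes an extracellular protein and is known to rise with brassinosteroid, was, like HAT2, taken up after its values were seen. It was at 1528, 2689 and 2153 in bzr1-1D, against 1969, 454.2 and 889.4 in det2, higher in bzr1-1D in experiments 2 and 3 alone. Its log2 difference was 1.10 ± 0.54 (SE, limma, adjusted p = 0.744). The difference was 0.44 without experiment 2 and 1.84 without experiment 1 (limma, unadjusted p = 0.343 and 0.00511, adjusted p = 0.91 and 0.32).

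**Figure D4:**
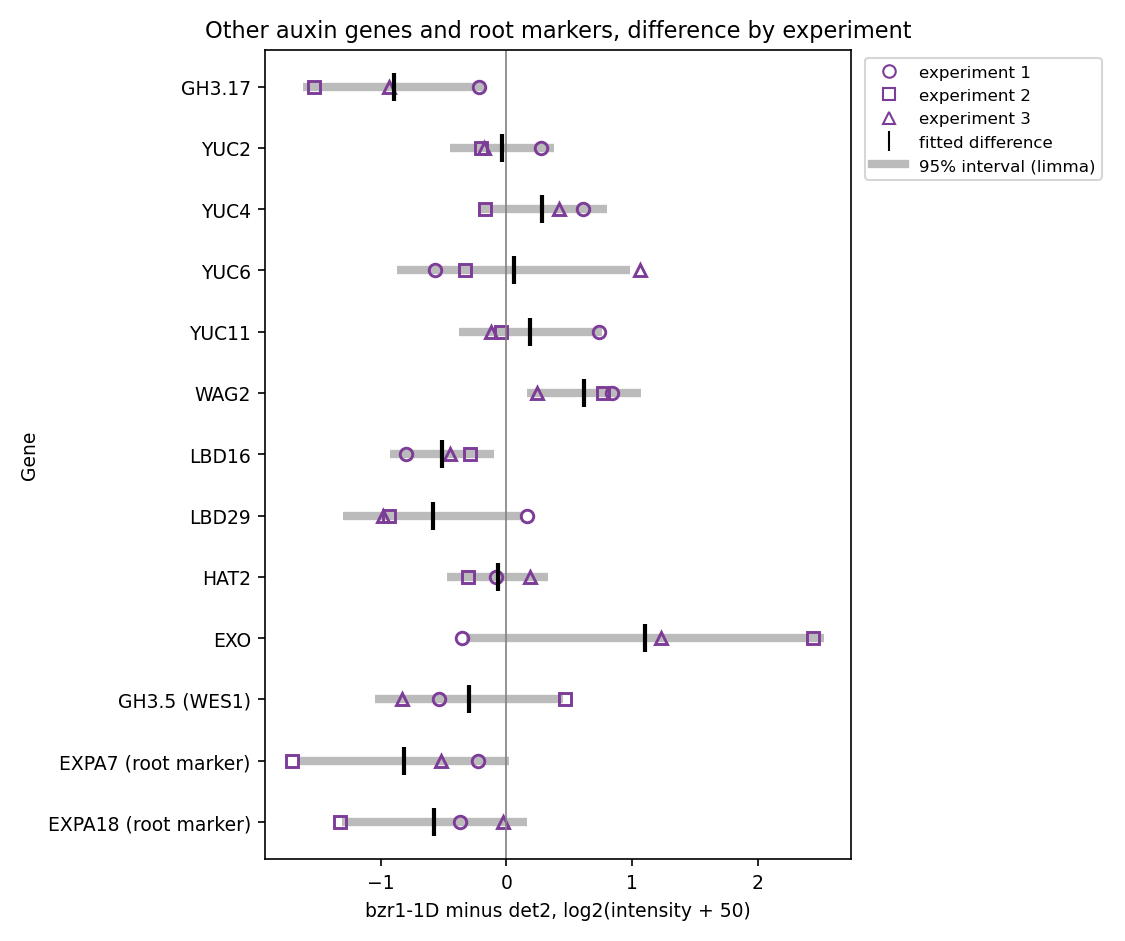
Difference between bzr1-1D and det2 (log2 of intensity plus 50) for GH3.17, the 10 other auxin genes with a named probe set and the root markers EXPA7 and EXPA18, with open markers for experiments, a black bar for the fitted difference and a grey band for its 95% interval by limma. WAG2 lies on the bzr1-1D side in all 3 experiments, and GH3.17, LBD16, EXPA7 and EXPA18 lie on the det2 side in all 3.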

How the data were processed

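Total RNA of whole seedlings was hybridised as 15 µg of biotinylated cRNA to ATH1 arrays, per the labels. The deposited values are probe-set intensities that the authors obtained with GCOS 1.1 at a target intensity of 500, per the labels; they precede the division by the wild type in GeneSpring 7.0 that the labels also describe. Of 22810 probe sets, 64 controls were left out and 22746 were tested without a filter on dim ones. Of these 13513 were paired with 1 gene by the platform annotation, 503 with several and 8730 with none, and 13436 of the first matched the TAIR 10.1 gene table, used for names alone.

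After log2(intensity + 50), genotype and experiment were fitted with limma 3.58.1 in R 4.3.3, with 2 residual degrees of freedom. The code was tested on simulated data. Same-numbered arrays are paired by the labels, which say that genotypes were grown side by side in each experiment. Their deviations from genotype means correlated at 0.387, 0.08 and 0.373 in experiments 1 to 3, and those of differently numbered arrays at -0.371 to 0.107. The 3 deviations of a genotype cancel out, so these correlations are tied to each other and do not test the pairing. The labels call the arrays biological replicates, and 3 per genotype limit the precision. The members and the lists were chosen with earlier results of these data known. Full values were set for members with an adjusted p under 0.05 in either test or an unadjusted p under 0.05 between genotypes, up to 3 per family with the largest difference at a mean of at least 100, and the brightest of each family, and for up to 2 further genes per role with the lowest p.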

Additional observations from a re-analysis of the deposited data

How the results depend on the processing

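The alternatives, all planned, were other offsets, centring, quantile normalization, filters, eBayes settings, other treatments of the experiment, and leaving out each experiment. By limma 0 of the 11 genes passed an adjusted p of 0.05 in any of them, between genotypes or between experiments, and the smallest adjusted p of a member was 0.320, without experiment 1. Genes at an unadjusted p under 0.05 numbered 1, and 2 with no offset (GH3.17 and IAA20); over left-out experiments they ran from 0 to 2. Of all probe sets 1 passed with no replicate block, 1 with the block made a random effect, and 0 with it fixed; the choice changed no call of a member, and GH3.17 had an adjusted p of 0.927 without it. Probe sets at an unadjusted p under 0.05 numbered 1556 and ran from 768 to 2222 over left-out experiments.

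The median log2 difference of the GH3 genes was -0.33 with a mean intensity of at least 100, which leaves 2 genes, and ran from -0.23 to 0.16 over left-out experiments. That of the IAA genes ran from -0.0738 to 0.16 and that of all 11 from 0.0029 to 0.08. Left-out experiments changed the sign of 5 genes: GH3.1 (-0.41 to 0.17), GH3.3 (-0.0602 to 0.62), GH3.9 (-0.0528 to 0.40), IAA33 (-0.16 to 0.0589) and IAA34 (-0.12 to 0.18). GH3.1 was 0.0029 without experiment 1. The other 6 kept theirs, and all 11 moved by over 1.5 times in at least 1 such fit; the cause was not tested. The offset moved the dim genes: IAA31 was -0.77 with 16 and -1.29 with none, IAA20 0.52 and 0.82. No member ended in _s_at or _x_at, so leaving such probe sets out changed only the adjustment (GH3.17, adjusted p = 0.706). No member had a second probe set or a RefSeq name outside the auxin families, so the 2 alternatives planned for such cases were not run. Tests between experiments had no fit without the experiment terms.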

Other observations

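Further genes tied to auxin by their RefSeq names lay outside the lists, and were taken up after the annotation was read. IAGLU, a glucosyltransferase that inactivates auxin by joining it to glucose, had intensities of 690.3, 1579 and 605.5 in bzr1-1D in experiments 1, 2 and 3, against 520.5, 712.5 and 739.7 in det2. It was thus higher in bzr1-1D in experiments 1 and 2 and lower in experiment 3 (log2 difference 0.40 ± 0.28 (SE), limma, adjusted p = 0.799). ILR3, a bHLH factor first found through resistance to an auxin conjugate, had the higher level in bzr1-1D each time, as 12.4% of all probe sets did. It was at 2259, 2111 and 1510.0 in bzr1-1D, against 2147, 1497 and 1143 in det2. Its genotypes overlapped, and both were highest in experiment 1 (log2 difference 0.31 ± 0.15 (SE), limma, adjusted p = 0.732). PID2, a kinase named for its likeness to PINOID, was at 53.6, 46.5 and 39.2 in bzr1-1D, against 31.2, 25.6 and 33.1 in det2, and was below the offset of 50 in 5 of 6 arrays (log2 difference 0.27 ± 0.13 (SE), limma, adjusted p = 0.744).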
